A study of Mus musculus with 12 samples.

Results

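The T cells and natural killer (NK) cells of whole bone marrow were followed through 10 genes, Cd3d, Cd3e, Cd3g, Cd8a, Cd4, Cd2, Cd5, Gzma, Nkg7 and Il2rb, out of 19938 genes measured by an array row with 1 gene symbol. The genes were taken by symbol, with the row of highest mean where a gene had several, and each of the 10 had 1 row. The study compared 4 groups of B6 mice, 3 arrays each, and asked how irradiation and parathyroid hormone (PTH), a hormone that builds bone when given intermittently, change the marrow. At 10 days of age the irradiated PTH and irradiated vehicle mice received a sub-lethal 310 cGy in each of 2 fractions. PTH or vehicle then started 24 hours later and was given from day 11 to day 15. The nonirradiated PTH and nonirradiated vehicle mice had the same 5 days of treatment without irradiation, and all marrow was collected at 16 days of age by flushing the long bones. No genotype beyond the B6 strain is named. Whether an array stands for 1 mouse or for a pool is not given either, and p-values here measure the spread between arrays, part of which may be technical.

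A T cell recognises antigen through its T cell receptor, which reaches the surface and signals only with the CD3 chains encoded by Cd3d, Cd3e and Cd3g. CD4 and CD8 are the coreceptors of helper and cytotoxic T cells, CD2 is an adhesion receptor, and CD5 dampens antigen receptor signals. Cytotoxic T cells and NK cells kill through granules that hold granzymes such as granzyme A, the product of Gzma, and the membrane protein NKG7, and both respond to interleukin-2 and interleukin-15 through the receptor chain encoded by Il2rb. Mature T and NK cells are a minority of marrow cells, and lymphocytes are among the blood cells most sensitive to radiation. In RNA from whole marrow, fewer cells of a type and less RNA per cell cannot be told apart.

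Values are log2 expression, so that a difference of 1 is a 2-fold change. Array medians lay between 6.18 and 6.25. Irradiated PTH replicate 3 and nonirradiated vehicle replicate 3 had a narrower range than the rest, with interquartile ranges of 2.88 and 2.86 against 3.13 to 3.25 in the other arrays. By Xist, which is active in female cells, and the Y-linked Kdm5d, replicate 1 of each irradiated group and all 3 nonirradiated PTH arrays had a female pattern, and the other 7 arrays had a male one. PTH and this sex pattern therefore cannot be told apart in nonirradiated marrow. As a check of the tissue, the neutrophil gene S100a8 lay at 11.7 to 13.1 over the 12 arrays and the red cell precursor gene Alas2 at 11.2 to 12.3.

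Cd3e, Cd3g and Cd8a fell with irradiation and Cd3d, the neighbour of Cd3g, did not pass the test. The promoters of these 4 genes are shown from 250 bases before to 50 bases after the annotated start. Sequences and coordinates are those of RefSeq on the mouse build GRCm38.p6, and the table used holds 7 of the 10 genes (not Cd2, Cd4 or Il2rb). Each is written 5′ to 3′ on the gene's own strand, and capitals mark matches to 6 short motifs searched on both strands. The motif letters were AGGAAG for the core that ETS factors bind and CAGNTG for the E-box of basic helix-loop-helix factors. TGTGGT stood for RUNX factors, and AGATAA for GATA factors. CTTTGA stood for LEF and TCF factors, and the last motif was the TATA box, TATAAA. None of the matches overlapped each other.
Cd3d, chr9:44981536-44981835, plus strand: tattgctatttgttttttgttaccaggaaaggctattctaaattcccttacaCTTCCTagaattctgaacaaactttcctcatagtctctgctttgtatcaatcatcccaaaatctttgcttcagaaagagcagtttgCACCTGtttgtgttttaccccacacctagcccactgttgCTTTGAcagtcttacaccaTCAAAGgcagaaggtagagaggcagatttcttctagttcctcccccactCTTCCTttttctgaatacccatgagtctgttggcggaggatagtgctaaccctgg
Cd3g, chr9:44980382-44980681, minus strand: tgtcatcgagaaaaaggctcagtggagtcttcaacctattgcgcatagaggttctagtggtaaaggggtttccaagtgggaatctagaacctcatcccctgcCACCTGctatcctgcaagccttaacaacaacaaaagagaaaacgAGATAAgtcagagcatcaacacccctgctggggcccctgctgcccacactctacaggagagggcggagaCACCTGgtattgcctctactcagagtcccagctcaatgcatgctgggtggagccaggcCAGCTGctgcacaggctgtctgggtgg
Cd3e, chr9:45009562-45009861, minus strand: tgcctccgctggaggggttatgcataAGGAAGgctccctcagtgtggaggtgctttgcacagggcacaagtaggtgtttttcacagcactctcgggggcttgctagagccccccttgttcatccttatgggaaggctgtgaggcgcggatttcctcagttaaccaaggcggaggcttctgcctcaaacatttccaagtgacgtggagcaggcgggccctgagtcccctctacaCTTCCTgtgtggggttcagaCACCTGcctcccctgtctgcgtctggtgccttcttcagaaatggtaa
Cd8a, chr6:71373177-71373476, plus strand: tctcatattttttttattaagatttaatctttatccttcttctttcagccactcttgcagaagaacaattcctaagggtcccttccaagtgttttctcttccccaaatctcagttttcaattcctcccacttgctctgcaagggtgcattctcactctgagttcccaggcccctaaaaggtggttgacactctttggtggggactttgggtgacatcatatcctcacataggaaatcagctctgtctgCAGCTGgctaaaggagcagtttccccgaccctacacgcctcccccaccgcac

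Cd3d and Cd3g are read in opposite directions from starts 1355 bases apart. All 4 promoters hold an E-box, with 1 match in Cd3d, 3 in Cd3g, 1 in Cd3e and 1 in Cd8a, and so do 51.4% of the 32851 promoters in the table. Cd3d and Cd3e hold 2 ETS cores each, a motif found in 35.4% of promoters, while the windows of Cd3g and Cd8a hold 0. Cd3d alone among the 4 has LEF/TCF matches, 2 of them, against 16% of promoters, and Cd3g alone has a GATA match, against 11.2%. Neither the RUNX nor the TATA letters occur in these 4 windows, and 16.8% and 13.6% of promoters hold them. A match is a description of letters and not of a bound site.

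Irradiation lowered some of the T cell genes, while the granule genes Gzma and Nkg7 did not pass the test. With the 2 treatments averaged, Cd2, Cd3e, Cd3g and Cd8a fell, 4 of 10, against 3.59% of all genes that fell, at an adjusted p under 0.05 in limma with Benjamini-Hochberg adjustment over all 19938 genes. None of the 10 rose, against 2.51% of all genes, and 3 (Cd2, Cd3e and Cd8a) were lower on all 6 irradiated than on all 6 nonirradiated arrays, against 2.8% of all genes. The 10 genes had a median change of -0.39 log2, and all genes tested one of -0.01. In PTH-treated marrow 3 of the 10 fell (Cd2, Cd3e and Cd8a), against 1.74% of all genes, and 0 rose, against 0.692%. In vehicle-treated marrow 1 fell (Cd2), against 1.01%, and 0 rose, against 1.21%. In PTH-treated marrow 8 of the 10 genes were lower on every irradiated array than on every nonirradiated one, which held for 10.9% of all genes. In vehicle-treated marrow 4 genes were (9.83% of all genes), and Nkg7 lay higher without overlap (8.95%). These counts rest on few calls: in PTH-treated marrow the number that fell was 1 with a term for the sex pattern and 5 with arrays weighted by their quality. Within groups the sex pattern varied only in the irradiated ones, where the female array was replicate 1. The sex term cannot be told apart from that replicate. The irradiation comparisons are also unequal in sex pattern. All nonirradiated PTH arrays had the female pattern, but of the irradiated PTH arrays only replicate 1 did. No nonirradiated vehicle array had it, while replicate 1 of the irradiated vehicle arrays did. Irradiation and the sex pattern are therefore partly mixed in the counts within each treatment.

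**Figure D1:**
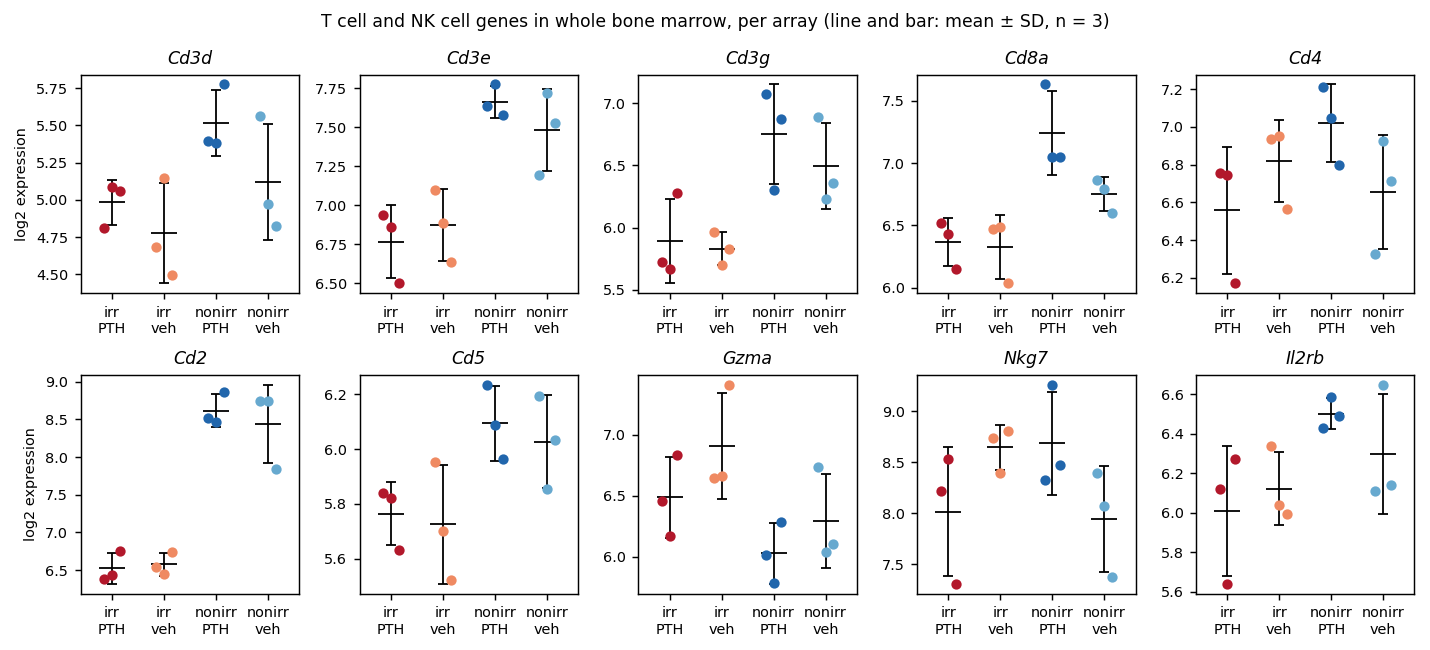
Log2 expression of each of the 10 genes on the 12 arrays, with points for arrays, a line for the group mean and bars for its SD (n = 3); irr and nonirr are irradiated and nonirradiated, veh is vehicle, and each panel has its own axis. Cd2 separates the irradiated arrays, at 6.38 to 6.76, from the nonirradiated ones, at 7.84 to 8.86, by the widest gap, while Gzma and Nkg7 do not follow the CD3 genes.

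Of the CD3 chains, 2 of 3 fell with the treatments averaged. Cd3e, which encodes CD3 epsilon, measured 6.94, 6.86 and 6.50 on the irradiated PTH arrays and 7.10, 6.89 and 6.64 on the irradiated vehicle arrays. It measured 7.63, 7.77 and 7.58 on the nonirradiated PTH arrays and 7.20, 7.72 and 7.53 on the nonirradiated vehicle arrays. All 6 irradiated arrays were below all 6 nonirradiated ones, while within each irradiation state the PTH and vehicle arrays overlapped. With irradiation Cd3e fell by 0.90 log2 in PTH-treated marrow (SE 0.17, adjusted p = 0.0167), a 1.86-fold decrease. This call was lost when any 1 of the 3 nonirradiated PTH arrays was left out (adjusted p from 0.0525 to 0.08), with a sex term (0.185) and without the 2 narrow-range arrays (0.0595), at changes of -0.94 to -0.70. In vehicle-treated marrow the change was -0.61 (SE 0.17, adjusted p = 0.105), which did not pass. Averaged over both treatments it was -0.75 (SE 0.12, adjusted p = 0.00259).

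Cd3g, for CD3 gamma, read 5.72, 5.67 and 6.28 in irradiated PTH marrow and 5.96, 5.70 and 5.83 in irradiated vehicle marrow. The nonirradiated PTH arrays read 7.07, 6.30 and 6.87 and the nonirradiated vehicle arrays 6.89, 6.23 and 6.36. Groups did not overlap within a treatment, though irradiated PTH replicate 3 was above the lowest nonirradiated vehicle array. Cd3g fell by 0.76 with the treatments averaged (SE 0.17, adjusted p = 0.0168), and this call was lost without irradiated vehicle replicate 2 (adjusted p = 0.0518). Taken singly, the contrasts gave -0.86 in PTH-treated marrow (adjusted p = 0.0882) and -0.66 in vehicle-treated marrow (adjusted p = 0.216). In PTH-treated marrow Cd3g did pass without irradiated PTH replicate 3 (adjusted p = 0.0416), 1 of the 2 narrow-range arrays, and without nonirradiated PTH replicate 2 (adjusted p = 0.0474).

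Cd3d, for CD3 delta, gave 4.81, 5.08 and 5.06 in irradiated PTH marrow, all below the 5.40, 5.38 and 5.77 of nonirradiated PTH marrow. On vehicle arrays its groups overlapped, with 4.69, 5.15 and 4.49 in irradiated marrow against 5.56, 4.97 and 4.83 in nonirradiated marrow. Its averaged change of -0.44 did not pass (SE 0.15, adjusted p = 0.134). Cd3d was the dimmest of the 10 genes, with a mean of 5.10 log2 over all arrays. Cd247, the zeta chain that carries the receptor's signal onward, is not among the 10 but belongs to the same complex. It averaged 6.43 ± 0.02 in irradiated PTH and 6.41 ± 0.20 in irradiated vehicle marrow, against 6.80 ± 0.02 in nonirradiated PTH and 6.81 ± 0.10 in nonirradiated vehicle marrow (SD, n = 3). Cd247 was lower on every irradiated array and its averaged change was -0.38 (SE 0.08, adjusted p = 0.0172).

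Of the coreceptors, Cd8a fell and Cd4 did not pass, and the difference between the genes was not tested. Cd8a, the alpha chain of CD8, stood at 6.52, 6.43 and 6.15 in irradiated PTH marrow, 6.47, 6.48 and 6.03 in irradiated vehicle marrow, 7.63, 7.05 and 7.05 in nonirradiated PTH marrow and 6.86, 6.79 and 6.60 in nonirradiated vehicle marrow. The irradiated groups overlapped with each other and were below both nonirradiated groups, of which the PTH group was above the vehicle group on every array. Cd8a fell by 0.65 with irradiation over both treatments (SE 0.13, adjusted p = 0.0114). In PTH-treated marrow it fell by 0.88 (SE 0.19, adjusted p = 0.0292), 1.83-fold, and in vehicle-treated marrow the change of -0.42 did not pass (SE 0.19, adjusted p = 0.354). The call in PTH-treated marrow was lost when any 1 of the 6 arrays of that comparison was left out, with adjusted p from 0.0521 to 0.123.

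Cd8b1, the beta chain that pairs with CD8 alpha on most cytotoxic T cells, was read as a partner of Cd8a. It was at 5.75, 5.76 and 6.22 in irradiated PTH marrow and 5.92, 5.72 and 5.95 in irradiated vehicle marrow, against 6.85, 6.84 and 6.95 in nonirradiated PTH and 6.80, 6.51 and 6.79 in nonirradiated vehicle marrow. The irradiated arrays were all below the nonirradiated ones. It fell by 0.97 in PTH-treated marrow (adjusted p = 0.00465) and by 0.84 in vehicle-treated marrow (adjusted p = 0.011). Cd4, the coreceptor of helper T cells that some dendritic cells can also carry, read 6.76, 6.74 and 6.17 in irradiated PTH marrow. In irradiated vehicle marrow Cd4 read 6.94, 6.95 and 6.57. In nonirradiated PTH marrow it read 7.21, 7.05 and 6.80, and in nonirradiated vehicle marrow 6.33, 6.93 and 6.71. Neither change of Cd4 with irradiation passed, at -0.46 in PTH-treated marrow (SE 0.20, adjusted p = 0.351) and 0.16 in vehicle-treated marrow (SE 0.20, adjusted p = 0.788). The averaged change of Cd4 was -0.15, with a 95% interval of -0.46 to 0.16.

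Cd2 gave the largest change of the 10 genes. It stood at 6.38, 6.44 and 6.76 in irradiated PTH marrow and 6.54, 6.45 and 6.74 in irradiated vehicle marrow, against 8.51, 8.46 and 8.86 in nonirradiated PTH marrow and 8.74, 8.74 and 7.84 in nonirradiated vehicle marrow. The lowest nonirradiated value, 7.84, came from nonirradiated vehicle replicate 3, the other narrow-range array, and was still above every irradiated array. Cd2 fell 4.25-fold in PTH-treated marrow (log2 change -2.09, SE 0.23, adjusted p = 0.000453) and 3.64-fold in vehicle-treated marrow (log2 change -1.86, SE 0.23, adjusted p = 0.00116). It passed in both contrasts under all 23 alternative settings run for each, the 12 that leave out 1 array among them. The 95% interval of its averaged change, -2.32 to -1.63, did not meet that of any other of the 10 genes, the nearest being Cd3g at -1.12 to -0.40.

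In the mouse, B cells and their precursors carry CD2 as well as T and NK cells, and B-lineage genes fell alongside it. Of 18 measured genes of the B-lineage list, 17 fell with the treatments averaged and 0 rose, with a median of -1.92 log2. Of all genes, 3.59% fell and 2.51% rose. Ms4a1, which encodes CD20, averaged 5.48 ± 0.20 in irradiated PTH and 5.68 ± 0.04 in irradiated vehicle marrow, against 9.77 ± 0.28 in nonirradiated PTH and 10.02 ± 0.37 in nonirradiated vehicle marrow (SD, n = 3). Averaged over the list, and relative to each gene's mean over the 12 arrays, B-lineage levels lay between -1.38 and -0.96 in irradiated PTH and between -1.06 and -0.74 in irradiated vehicle marrow. They lay between 0.93 and 1.25 in nonirradiated PTH and between 0.80 and 1.14 in nonirradiated vehicle marrow. The part of B-lineage cells in the fall of Cd2, or of the other T cell genes, was not tested.

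Cd5, which T cells and a subset of B cells carry, read 5.84, 5.82 and 5.63 in irradiated PTH and 5.95, 5.70 and 5.52 in irradiated vehicle marrow, against 6.23, 6.09 and 5.96 in nonirradiated PTH and 6.19, 5.85 and 6.03 in nonirradiated vehicle marrow. The PTH-treated groups did not overlap and the vehicle-treated groups did. Its averaged change of -0.32 did not pass (SE 0.10, adjusted p = 0.104).

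**Figure D2:**
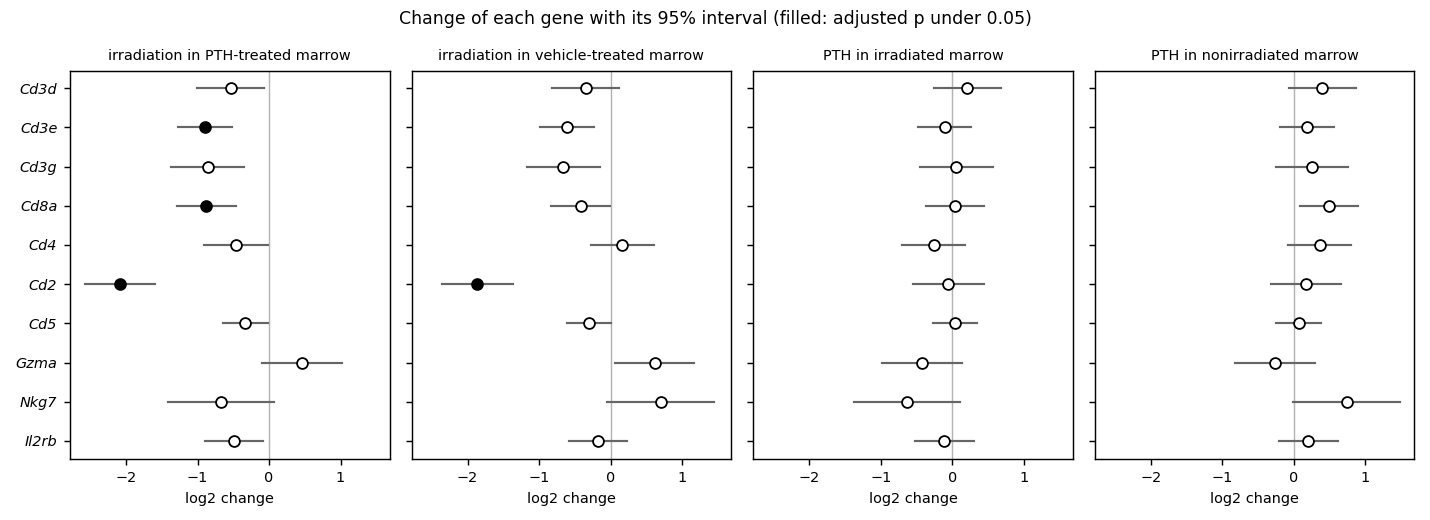
Log2 change of each gene with its 95% interval in 4 comparisons, each irradiated minus nonirradiated or PTH minus vehicle; filled points have an adjusted p under 0.05. Cd2, Cd3e and Cd8a are filled for irradiation in PTH-treated marrow and Cd2 alone in vehicle-treated marrow, and 0 of the 10 points are filled for PTH in either irradiation state.

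Neither cytotoxic granule gene passed the test for irradiation. Gzma read 6.46, 6.17 and 6.83 in irradiated PTH and 6.65, 6.66 and 7.41 in irradiated vehicle marrow, against 6.01, 5.79 and 6.28 in nonirradiated PTH and 6.73, 6.04 and 6.10 in nonirradiated vehicle marrow. Irradiated and nonirradiated arrays overlapped within each treatment. The changes were 0.46 in PTH-treated marrow (SE 0.26, adjusted p = 0.483), 0.61 in vehicle-treated marrow (SE 0.26, adjusted p = 0.319) and 0.54 averaged (SE 0.18, adjusted p = 0.124), and none passed. Without nonirradiated vehicle replicate 1, which had the highest Gzma of the nonirradiated arrays, the averaged change was 0.65 and passed (adjusted p = 0.0491).

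Nkg7 had changes of opposite sign in the 2 treatments. It read 8.21, 8.53 and 7.31 in irradiated PTH and 8.74, 8.40 and 8.81 in irradiated vehicle marrow, against 8.32, 9.26 and 8.48 in nonirradiated PTH and 8.39, 8.07 and 7.38 in nonirradiated vehicle marrow. The lowest values, 7.31 and 7.38, came from the narrow-range arrays. The change with irradiation was -0.67 in PTH-treated marrow (SE 0.34, adjusted p = 0.432) and 0.70 in vehicle-treated marrow (SE 0.34, adjusted p = 0.411), neither of which passed. Without the 2 narrow-range arrays the changes were -0.315 and 0.414. Of the 10 genes, Nkg7 had the smallest unadjusted p for the difference between these changes, the interaction (-1.37, SE 0.48, unadjusted p = 0.0152), and its adjusted p was 0.732. The nonirradiated groups in it differ in sex pattern as well as in treatment.

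Il2rb read 6.12, 5.64 and 6.27 in irradiated PTH and 6.34, 6.04 and 5.99 in irradiated vehicle marrow. Nonirradiated PTH marrow gave 6.43, 6.59 and 6.49 and nonirradiated vehicle marrow 6.11, 6.65 and 6.14. The PTH-treated groups did not overlap and the vehicle-treated groups did. The averaged change of -0.33 did not pass (SE 0.13, adjusted p = 0.204), and it was -0.47 and passed with arrays weighted by quality (adjusted p = 0.0156).

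PTH changed none of the 10 genes at the threshold, in a setting where 0% of all 19938 genes passed in either irradiation state or for the interaction. At an unadjusted p under 0.05, there were 759 genes for PTH in irradiated marrow, 356 in nonirradiated marrow and 1094 for the interaction, where 5% of the genes tested is 997. In irradiated marrow the 10 PTH changes ran from -0.63 for Nkg7 to 0.21 for Cd3d, and 0 of the 10 had groups that did not overlap, against 4.25% of all genes lower and 5.48% higher. The 95% interval of the PTH change there was -0.48 to 0.27 for Cd3e, -0.37 to 0.44 for Cd8a and -0.54 to 0.44 for Cd2. In nonirradiated marrow Cd8a was 0.49 higher with PTH (SE 0.19, adjusted p = 1, 95% interval 0.08 to 0.90) and its groups did not overlap, as was so in this direction for 3.21% of all genes. The other 9 changes ran from -0.26 for Gzma to 0.74 for Nkg7. All 3 PTH arrays of this comparison have the female pattern and all 3 vehicle arrays the male one, so the hormone and the sex pattern cannot be told apart. The interaction was negative for all 10 genes, though Cd2, Cd3e, Cd5 and Gzma changed sign under some alternatives, and none passed. It contains the nonirradiated PTH and vehicle groups and so has the same limit of the sex pattern. The median interaction was -0.26 in the 10 genes and -0.25 in 12 housekeeping genes, against 0.01 over all genes. The comparisons share arrays, so their values are not independent of each other.

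**Figure D3:**
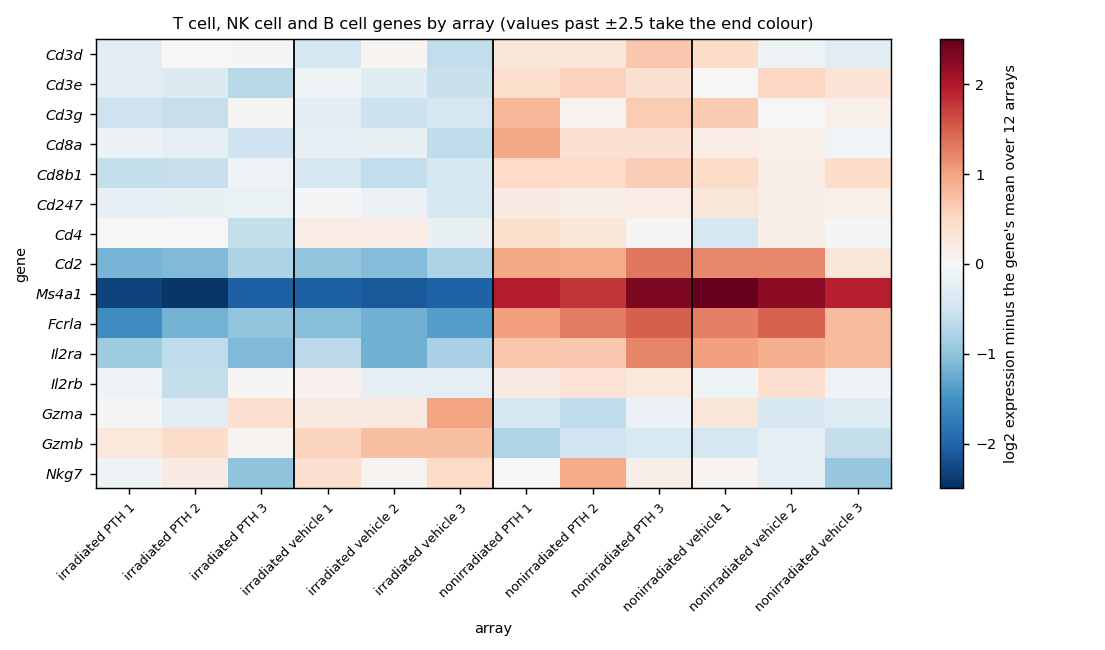
Log2 expression of T cell, NK cell and B cell genes on each array, relative to the gene's mean over the 12 arrays (colour scale in log2 units), with black lines between the groups. The CD3 genes, Cd8a, Cd8b1, Cd2 and Il2ra share the direction of the B cell genes Ms4a1 and Fcrla at a smaller size, and Gzmb runs the other way.

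The remaining genes of T cell receptor signalling changed in part, and downward where they passed. The 22 measured genes of receptor signalling and coreceptors had a median change of -0.26 with the treatments averaged. Of them, 6 fell (3.59% of all genes) and 0 rose (2.51%). Besides Cd8b1 and Cd247 these were Grap2, an adaptor of the receptor (-0.98, adjusted p = 0.000459), Lat, the membrane scaffold of the signal (-0.36, adjusted p = 0.0449), Themis, which T cell maturation in the thymus requires (-0.60, adjusted p = 0.0284), and Ptprc, the CD45 phosphatase of all white blood cells (-0.65, adjusted p = 0.00387). Lat passed in 7 of 22 alternative settings and Themis in 14 of 21, while Cd8b1, Cd247, Grap2 and Ptprc passed in all that were run.

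Of 17 measured T lineage factors and differentiation genes, 9 fell (3.59% of all genes) and 0 rose (2.51%), with a median of -0.47. Ikzf3, a zinc finger factor of lymphocytes, changed by -2.57 (adjusted p = 2.24e-05) and Il7r, the receptor of interleukin-7, by -2.38 (adjusted p = 3.02e-06). The other 4 among the 6 with the smallest p changed by -1.77 for Il2ra, which encodes CD25, -1.63 for Satb1, a chromatin organiser, -1.25 for Lef1, a partner of beta-catenin, and -0.88 for Cd27, a costimulatory receptor. All 6 are also expressed in B cells or their precursors, in mice or humans. Bcl11b, which commits precursors to the T lineage, and Gata3, which early T cells require, were picked out after their values were seen. Their changes of -0.07 (adjusted p = 0.839) and 0.03 (adjusted p = 0.948) did not pass. Of the 17 genes of the list, 15 had a negative averaged change and 2, Gata3 among them, a positive one.

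A list of CD2 ligands, adaptors and related receptors had a median of -0.25. In it 4 of 11 genes fell (3.59% of all genes) and 0 rose (2.51%). All 4 are SLAM family receptors, relatives of CD2 that are not its ligands: Slamf6 (-1.67, adjusted p = 4.22e-05), Slamf7 (-1.45, adjusted p = 3.18e-05), Slamf1 (-0.88, adjusted p = 0.0311) and Cd84 (-0.78, adjusted p = 0.0104), which many white blood cells share. Slamf1 passed in 15 of 22 alternative settings and the other 3 in all 22. Cd48, the ligand of CD2 in the mouse, had a change of -0.16 (adjusted p = 0.619), and Cd2ap, an adaptor of its tail, one of 0.40 (adjusted p = 0.525), and both were picked out after their values were seen.

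Of 30 genes of NK cells and cytotoxic granules, 1 fell and 1 rose, with a median of -0.08, and these shares are near those of all genes (3.59% lower and 2.51% higher). Gzmb, for granzyme B, was higher on every irradiated array than on every nonirradiated one, with 6.16, 6.36 and 5.97 in irradiated PTH and 6.46, 6.65 and 6.65 in irradiated vehicle marrow, against 5.14, 5.41 and 5.51 in nonirradiated PTH and 5.45, 5.68 and 5.30 in nonirradiated vehicle marrow. The rise was 0.81 in PTH-treated marrow (adjusted p = 0.0136), 1.11 in vehicle-treated marrow (adjusted p = 0.00224) and 0.96 averaged (adjusted p = 0.000191). Itga2, an integrin chain of NK cells and platelets, fell by 0.73 (adjusted p = 0.0191). Some NK cell and granule genes, picked out after their values were seen, did not pass. The averaged change was -0.12 for Klrb1c, which encodes NK1.1 (adjusted p = 0.785). For Ncr1, which encodes NKp46, it was -0.35 (adjusted p = 0.181), and for Prf1, which encodes perforin, -0.01 (adjusted p = 0.977). Of the 30 genes of the list, 25 had a negative averaged change, against 10413 of all 19938 genes. At an unadjusted p under 0.05 in limma there were 8 of the 30, against 3443 of all genes.

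Genes of the interleukin-2 and interleukin-15 pathway went both ways, with 3 of 9 lower (3.59% of all genes) and 2 higher (2.51%). Il2ra fell, as given above, Il15, the cytokine that sustains NK cells, fell by 0.64 (adjusted p = 0.0231) and Stat5b, which relays the signal, fell by 0.43 (adjusted p = 0.0387). Cish and Socs3, feedback inhibitors of cytokine receptors that many cell types use, rose by 1.82 (adjusted p = 0.000315) and 0.88 (adjusted p = 0.00128). Cish averaged 7.99 ± 0.65 in irradiated PTH and 8.26 ± 0.12 in irradiated vehicle marrow, against 6.38 ± 0.43 in nonirradiated PTH and 6.22 ± 0.36 in nonirradiated vehicle marrow (SD, n = 3). Il15 passed in 16 and Stat5b in 10 of 22 alternative settings.

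**Figure D4:**
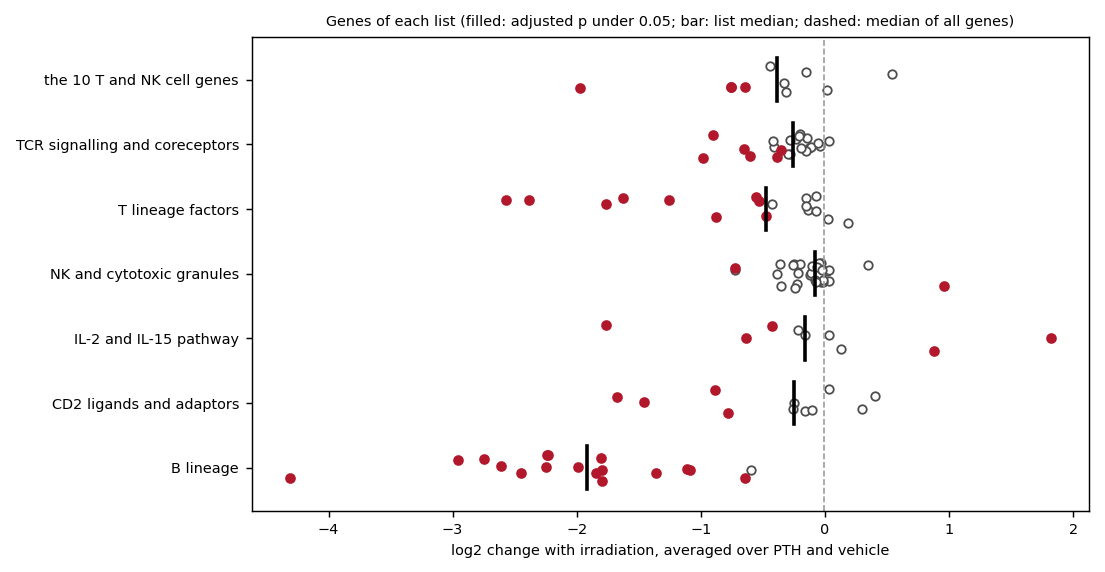
Log2 change with irradiation, averaged over PTH and vehicle, of each gene (point) in 7 lists, with a bar at the list median and a dashed line at the median of all genes; filled points have an adjusted p under 0.05. The 10 T and NK cell genes have a median of -0.39, between the NK and granule list at -0.08 and the B-lineage list at -1.92.

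Other cell types of the marrow were read beside these genes with irradiation averaged. Of all genes, 3.59% were lower and 2.51% higher, and the lists here are short. Plasmacytoid dendritic cell genes had 3 of 9 lower and 0 higher (median -0.41), among them Siglech at -1.56, a lectin of these cells (adjusted p = 0.000137). Monocyte and macrophage genes had 0 of 13 lower and 4 higher (median 0.43), with Cd5l, a protein secreted by tissue macrophages, at 1.44 (adjusted p = 0.00675) and Marco, a scavenger receptor, at 0.81 (adjusted p = 0.000897). Neutrophil genes had 0 of 12 past the threshold in either direction, erythroid genes 1 of 7 lower (Car1, -1.26) and basophil and mast cell genes 2 of 9 lower (Kit and Prss34). Housekeeping genes had 0 of 12 past the threshold and a median of -0.02. The share of these cell types in the values of the 10 genes was not tested.

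The genes whose pattern over the 12 arrays was most like that of Cd2, by Pearson's r, were Hivep2, a zinc finger factor (0.989), Fcrla, a relative of Fc receptors in B cells (0.985), Tifa, a TRAF-binding adaptor (0.984), Gramd3 (0.983) and Ms4a1 (0.979). Within the 6 irradiated arrays alone these correlations lay between 0.406 for Fcrla and 0.935 for Tifa, and within the 6 nonirradiated arrays between 0.606 for Ms4a1 and 0.89 for Fcrla. Most like the mean of Cd3d, Cd3e and Cd3g were Gimap7, a GTPase of lymphocytes (0.967), Cd209a, a lectin of dendritic cells (0.956), Sh2d4a (0.956), the microRNA gene Mir374b (0.953) and Hivep2 (0.952). Within the irradiated arrays they lay between 0.0436 for Hivep2 and 0.623 for Sh2d4a, and within the nonirradiated arrays between 0.762 for Cd209a and 0.959 for Mir374b. The arrays share the irradiation step, and no p is given. Among the 10 genes themselves, Cd2 correlated with Cd3g at 0.849 and with Cd3e at 0.829 over the 12 arrays, and Cd3e with Gzma at -0.804. Cd3e correlated with Cd3g at 0.587 and with Cd3d at 0.477. With the 18 measured B-lineage genes, Cd3e correlated at 0.281 (Vpreb1) to 0.962 (Ebf1) and Cd2 at 0.57 (Vpreb1) to 0.985 (Fcrla). After each group's mean was taken off, Cd3e and Cd3g, chains of the same complex, correlated at -0.674. Cd3d then correlated with Cd3g at 0.378 and with Cd3e at -0.39. Cd3e correlated with Cd4 at 0.892 and with Gzma at -0.887. These pairs are a selection among all pairs of the 10 genes, and each group's mean rests on 3 arrays.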

How the data were processed

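Total RNA of whole bone marrow was measured on 12 whole-transcript arrays, 3 in each of 4 groups. The authors' deposited table holds log2 expression, a scale read from its values. Per the submitters' processing notes the tools were affy, RMA and limma, without versions. No genome build for the data, and no statement on whether the arrays were normalized together, is given in the sources used here. RMA shrinks differences of dim probes. The filter on dim genes used as an alternative kept 9969 of 19938 genes. It left out Cd3d, Cd3g, Cd5, Gzma and Il2rb and kept Cd2, Cd3e, Cd8a, Cd4 and Nkg7. With all genes fitted and the treatments averaged, Cd3g alone passed of the genes left out. Of those kept, Cd2, Cd3e and Cd8a passed, and Cd4 and Nkg7 did not. Whether a low signal kept Cd3d, Cd5, Gzma and Il2rb from passing was not tested.

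Of 35556 rows, 21789 had 1 gene symbol, 1621 had several and 12146 were not listed in the annotation used. The first kind gave 19938 genes, 1 row each (the highest mean for 999 genes with several rows). A symbol was updated through RefSeq's GRCm38.p6 table, where 91 rows had no match. A model of the 4 group means was fitted to the 12 arrays (limma 3.58.1, R 4.3.3, empirical Bayes moderation), with 6 comparisons and Benjamini-Hochberg adjustment over all genes at 0.05. The number of arrays limits the precision.

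The 10 genes and 12 further lists (186 entries, 169 measured) were chosen with earlier results of these data known, so list counts describe and do not test. Genes named from a list were those past the threshold, at most 6 with the smallest p. For likeness, the 5 highest correlations were taken. For PTH in irradiated marrow, same-numbered arrays correlated at 0.144 to 0.57 in their deviations from the group means and other pairs at -0.509 to 0.396. These ranges overlap, so a pairing by replicate number is possible there but not established. With the number as a block, 0 of the 10 genes passed there too. The labels do not say whether replicate numbers pair arrays, and in both irradiated groups replicate 1 is the array with the female pattern. The alternatives were a trended robust variance, array weights, other scalings, a filter on dim genes, row choice, the arrays fitted, a replicate block, a sex term, both narrow-range arrays left out, a fold minimum and each array left out.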

Additional observations from a re-analysis of the deposited data

How the results depend on the processing

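Of the called changes of the 10 genes, those of Cd2 kept their call in every alternative run, as did the averaged falls of Cd3e and Cd8a, and no scaling moved the median of all genes by over 0.1 log2. The number that fell in PTH-treated marrow was 3, but 5 with array weights, 1 with a sex term, 1 without the 2 narrow-range arrays and 1 to 3 with 1 array left out (1 without nonirradiated PTH replicate 1 or 3). In vehicle-treated marrow it was 1, but 2 with array weights and 2 with arrays centred on their median, Cd3e being the second. The averaged number called, 4, ranged from 3 to 5 with 1 array left out (3 fell without irradiated vehicle replicate 2, and without nonirradiated vehicle replicate 1, 4 fell and Gzma rose). With the replicate number as a block over all 12 arrays, 4 genes fell in PTH-treated marrow (Cd3g at an adjusted p = 0.0345 besides the other 3). In irradiation and nonirradiated PTH comparisons same-numbered arrays correlated at -0.65 to 0.557, and no pairing by number is established there either. The block changed no other call. The cause of these differences was not tested. Settings that leave arrays out also have fewer arrays.

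In PTH-treated marrow the call of Cd8a (-0.88) was also lost with a sex term (-0.73, adjusted p = 0.268), without the narrow-range arrays (-0.77, adjusted p = 0.0925) and with only the groups compared (-0.88, adjusted p = 0.107). Where the call of Cd3e (-0.90) was lost, its change was -0.70 with a sex term, -0.76 without the narrow-range arrays and -0.94 to -0.84 without 1 nonirradiated PTH array.

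Of 1340 single-gene values under alternatives, 43 changed sign, all of them uncalled. With 1 array left out, the change of Cd4 in vehicle-treated marrow ranged from -0.00069 to 0.30 and the averaged change of Nkg7 from -0.13 to 0.19, which was -0.024 with housekeeping centring. For PTH in irradiated marrow these ranges were -0.17 to 0.030 for Cd2, -0.23 to 0.026 for Cd3e, -0.14 to 0.17 for Cd3g, -0.062 to 0.15 for Cd5, -0.11 to 0.14 for Cd8a and -0.24 to 0.073 for Il2rb. There Cd3d was -0.066 and Cd3g -0.021 with array weights, Cd3e 0.026 and Cd3g -0.14 without the narrow-range arrays, and Cd5 -0.032 and Cd8a -0.00061 with quantile normalization repeated. For PTH in nonirradiated marrow the ranges were -0.13 to 0.32 for Cd2 and -0.019 to 0.15 for Cd5. Cd2 was -0.13 there without the narrow-range arrays, and with a sex term Cd3e was -0.12, Cd5 -0.16 and Il2rb -0.039. For the interaction they were -0.38 to 0.074 for Cd2, -0.13 to 0.086 for Cd5 and -0.38 to 0.10 for Gzma. With a sex term Cd3e was 0.0089 and Cd5 0.20, and Cd5 was 0.059 with median centring and 0.035 without the narrow-range arrays.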
